A study of Mus musculus with 8 samples.

Results

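The peaks described here are those listed for PU.1 and for CEBPA in the empty-vector (EV) line of a murine acute myeloid leukaemia (AML) model. They numbered 31407, 5288 for PU.1 and 26119 for CEBPA, of the 67673 peaks in the 4 lists of the series that were read. A PU.1 peak and a CEBPA peak that shared at least 1 bp were called joint, and the others PU.1-only or CEBPA-only. The line is X18.1.1, derived from a radiation-induced AML, and it has no intact Pu.1 gene. It lost 1 copy, and the copy that is left is mutated in the part that contacts DNA and lacks some of the PEST region. EV cells were a clone grown from limiting dilution after transduction with the empty MSCV-puro retrovirus, and the second line, PuER, was a clone transduced to express wild-type PU.1 fused to an oestrogen receptor domain. Both lines were kept in 100 nM 4-hydroxytamoxifen (OHT) for 2 h. EV cells received no wild-type PU.1. ChIP-Seq pulls down a protein with the DNA attached to it and sequences that DNA, and a peak is a stretch that collects many reads. There was 1 library per antibody and line, so nothing could be checked between replicates and p-values were not calculated. Shares are given with exact (Clopper-Pearson) 95% intervals, which cover counting error only. Each peak was an interval of 400 bp without a height or read count, so the depth behind each list is unknown, and a peak absent from a list does not show that the factor was absent from the DNA. The lists hold no expression values, so the cell type could not be checked against marker transcripts.

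PU.1, encoded by Spi1, belongs to the ETS family, whose members recognise a GGAA core. CEBPA is a basic leucine zipper factor that binds as a dimer to a partly palindromic site. Both act in the formation of granulocytes and monocytes, and in normal myeloid cells they are found together at many enhancers. They also act at each other's genes, and at genes for cytokine receptors and granule proteins.

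The sequences below show what the 3 classes of peak looked like at the level of bases. ETS sites (GGAAGT, which reads ACTTCC on the opposite strand) and CEBP sites (TTGCNNAA on either strand) are in capitals. All are from the plus strand of GRCm38 (mm10), 5′ to 3′, and none met an exon. For joint peaks, the 80 bp in the middle of the PU.1 peak are given where both sites lay there and the centres of both peaks were within 50 bp, a combination found in 99 of the pairs whose 80 bp met no exon. Among these 99, the Tnfrsf1b pair was the only one assigned to a gene of the 5 myeloid gene lists described below, while a further such pair, at Il17ra, met an exon and is not shown. Those at C5ar2, Fam118a and Borcs5 lay nearest to a transcription start among the 99, and these and the Lcp1 pair were chosen after the values were seen.
Tnfrsf1b, chr4:145241149-145241228: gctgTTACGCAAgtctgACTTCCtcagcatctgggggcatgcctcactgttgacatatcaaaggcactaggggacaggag
Lcp1, chr14:75195758-75195837: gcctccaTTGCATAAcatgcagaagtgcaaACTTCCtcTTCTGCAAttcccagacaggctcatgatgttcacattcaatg
C5ar2, chr7:16244246-16244325: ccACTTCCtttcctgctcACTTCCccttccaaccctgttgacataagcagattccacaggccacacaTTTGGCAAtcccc
Fam118a, chr15:85036738-85036817: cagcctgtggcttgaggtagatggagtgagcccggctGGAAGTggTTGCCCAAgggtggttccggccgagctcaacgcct
Borcs5, chr6:134701007-134701086: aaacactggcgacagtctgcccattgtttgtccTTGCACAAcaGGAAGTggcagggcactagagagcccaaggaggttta

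In the Fam118a, Borcs5 and Lcp1 pairs the ETS site and the nearest CEBP site were 2 bp apart. The gap was 5 bp at Tnfrsf1b and 43 bp at C5ar2. At Borcs5 the centres of the PU.1 and the CEBPA peak fell on the same base, and at Lcp1 they were 2 bp apart. The pair upstream of Clec4d, which encodes a C-type lectin receptor of myeloid cells, shows the other arrangement, with centres 66 bp apart. It was likewise chosen after the values were seen, and the stretch shown runs from 30 bp before the CEBPA centre to 29 bp past the PU.1 centre.
Clec4d, chr6:123252953-123253078: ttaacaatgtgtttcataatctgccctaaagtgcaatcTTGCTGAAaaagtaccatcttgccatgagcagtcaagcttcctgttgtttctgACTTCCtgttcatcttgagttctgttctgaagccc
There the ETS site was centred 2 bp from the PU.1 centre and 64 bp from the CEBPA centre. The CEBP site was centred 12 bp from the CEBPA centre and 54 bp from the PU.1 centre, so that each site lay close to the peak of its own factor.

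For the remaining classes, promoter peaks of myeloid genes with a site for only the listed factor are shown, taken in order of distance to the start. Plcg2 (phospholipase C gamma 2) and Csf2ra (a chain of the GM-CSF receptor) had PU.1-only peaks, and Adgre1 (F4/80) and Clec4e (Mincle) had CEBPA-only peaks.
Plcg2, PU.1-only, chr8:117498601-117498680: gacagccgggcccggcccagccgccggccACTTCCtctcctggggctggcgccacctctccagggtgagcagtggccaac
Csf2ra, PU.1-only, chr19:61227695-61227774: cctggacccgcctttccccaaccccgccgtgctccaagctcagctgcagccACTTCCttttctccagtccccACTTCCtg
Adgre1, CEBPA-only, chr17:57358601-57358680: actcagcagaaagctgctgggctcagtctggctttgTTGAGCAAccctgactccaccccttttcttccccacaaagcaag
Clec4e, CEBPA-only, chr6:123289886-123289965: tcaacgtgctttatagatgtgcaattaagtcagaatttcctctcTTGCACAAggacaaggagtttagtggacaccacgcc
The Plcg2 and Csf2ra windows were centred 350 bp downstream and 359 bp upstream of a start, and those of Adgre1 and Clec4e 50 bp and 56 bp upstream.

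More than 1 in 2 PU.1 peaks of EV cells coincided with a CEBPA peak, and about 1 in 9 CEBPA peaks with one for PU.1. Joint PU.1 peaks numbered 3046 of 5288 (57.6%, 95% interval 56.3 to 58.9%). Of the 26119 CEBPA peaks, 3045 were joint (11.7%, 11.3 to 12.1%). They formed 3047 pairs and left 2242 PU.1-only and 23074 CEBPA-only peaks. The CEBPA list was 4.94 times as long as the PU.1 list, so the same pairs made up a smaller share of it. For scale, windows of the same width centred 2000 bp to either side of the PU.1 peaks overlapped a CEBPA peak in 5.12% of cases, those at 10 kb in 3.20% and those at 50 kb in 2.21%. The PuER lists, in which CEBPA peaks were 1.31 times as many as PU.1 peaks, gave 29.8% of PU.1 and 22.7% of CEBPA peaks as joint.

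Where PU.1 and CEBPA peaks overlapped, their centres were close. The median distance between the centres of a joint pair was 44 bp (quartiles 16 and 90 bp), in peaks that are 400 bp wide. The centres lay within 10 bp of each other in 17.98% of the 3047 pairs, within 50 bp in 54.9% (53.1 to 56.7%) and within 100 bp in 78.5%. The CEBPA centre was on the right of the PU.1 centre in 1509 pairs, on the left in 1499 and on the same base in 39, so neither side prevailed. Beyond the overlap few PU.1 peaks had a close neighbour, since for 5.30% of all PU.1 peaks the nearest CEBPA centre was at least 400 bp and under 1000 bp away. For PU.1-only peaks the nearest CEBPA centre was at a median of 7973.5 bp (quartiles 2182.5 and 23388 bp), and for CEBPA-only peaks the nearest PU.1 centre was at 62540 bp. The CEBPA peaks themselves lay a median of 8743 bp from the next CEBPA peak, close to the distance at which PU.1-only peaks found one. In PuER the median distance of joint centres was 52 bp, with 49.3% within 50 bp.

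**Figure D1:**
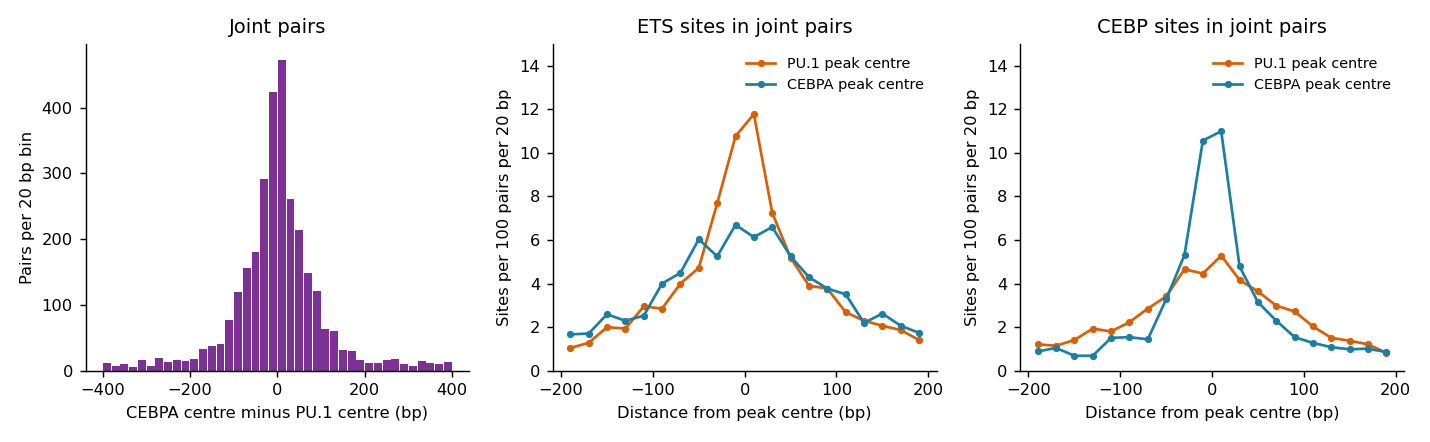
Left, the position of the CEBPA centre relative to the PU.1 centre in the 3047 joint pairs of EV cells, in bins of 20 bp. Middle and right, the number of ETS and CEBP sites per 100 joint pairs in bins of 20 bp, around the centres of the PU.1 peaks (orange) and of the CEBPA peaks (blue). Offsets were symmetric about 0 with 54.9% within 50 bp, ETS sites were most frequent at PU.1 centres, and CEBP sites at CEBPA centres.

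Within joint pairs, ETS sites gathered at the centre of the PU.1 peak and CEBP sites at the centre of the CEBPA peak. This was clearest in the 1393 pairs whose centres were at least 50 bp apart, where the 40 bp around each centre do not overlap. There, an ETS site was present around 20.2% of PU.1 centres (18.1 to 22.4%) and 5.96% of CEBPA centres (4.77 to 7.33%). A CEBP site was present around 18.7% of CEBPA centres (16.7 to 20.9%) and 3.02% of PU.1 centres (2.18 to 4.05%). The same windows placed 2000 bp away from all joint pairs held an ETS site in 2.30% and a CEBP site in 1.49% of cases. Where exactly 1 ETS site lay between the centres or within 40 bp of them, it was nearer the PU.1 centre in 378 of 510 pairs (74.1%, 70.1 to 77.9%). A lone CEBP site was nearer the PU.1 centre in 74 of 439 pairs (16.9%, 13.5 to 20.7%). The distance between the sites showed no prevailing value. In the 678 joint PU.1 peaks with both sites within the 400 bp, the nearest ETS and CEBP sites were a median of 46 bp apart, and the most frequent gap among those of 0 to 19 bp was 2 bp, in 14 peaks (2.06%, 1.13 to 3.44%). Relative to the strand of the ETS site, the CEBP site was on the GT side in 53.4% of these peaks (49.6 to 57.2%).

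The classes differed in which sites their centres held. In the central 80 bp, an ETS site was found in 41.7% of PU.1-only peaks (39.7 to 43.8%), 32.7% of joint PU.1 peaks (31.1 to 34.4%) and 8.39% of CEBPA-only peaks (8.04 to 8.76%). Windows of 80 bp centred 2000 bp to either side of the same peaks held an ETS site in 4.66%, 4.56% and 4.93% of cases. A CEBP site was found in 36.6% of CEBPA-only peaks (36.0 to 37.3%) and 16.1% of joint PU.1 peaks (14.8 to 17.4%). In PU.1-only peaks the share was 2.99% (2.32 to 3.78%), against 3.03% in their flanking windows, a pooled value made of 0.928% against 3.25% at promoters and 4.28% (3.27 to 5.48%) against 2.90% among distal peaks. When joint regions were centred on the CEBPA peak instead, 28.1% held a CEBP and 21.7% an ETS site. By either centre the joint regions thus held each factor's site less often than the peaks listed for that factor alone. Both sites occurred together in the central 80 bp of 142 joint PU.1 peaks (4.66%, 3.94 to 5.47%), and 55.8% of joint PU.1 peaks held neither, as did 56.5% of PU.1-only and 57.6% of CEBPA-only peaks. Among the 32851 RefSeq promoter sequences of 300 bp each (GRCm38), 23.8% held an ETS and 10.8% a CEBP site. Sites were exact matches on either strand, and a peak without these letters may hold a diverged site.

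**Figure D2:**
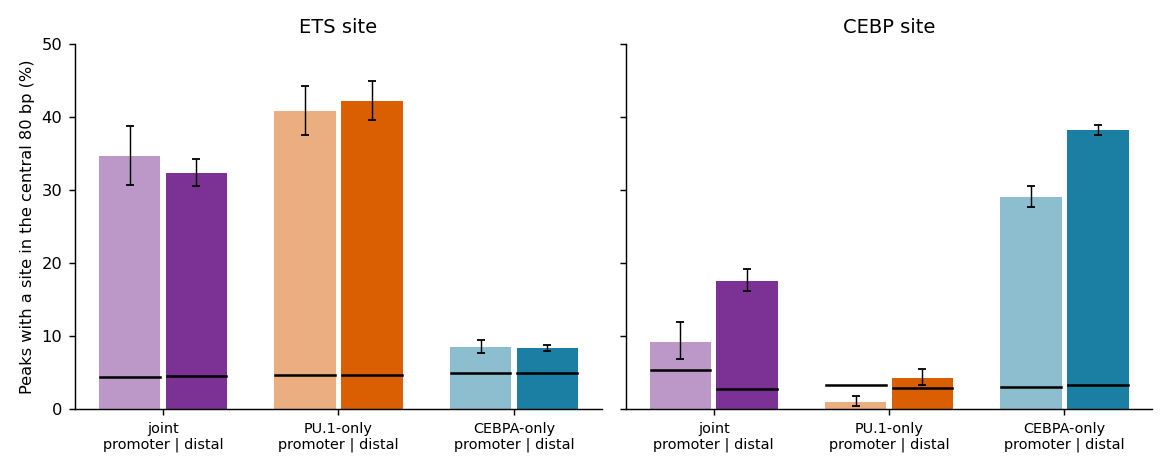
Share of peaks with an ETS site (left) or a CEBP site (right) in the central 80 bp, by class, for promoter peaks (pale bars) and distal peaks (full bars) of EV cells. Error bars are exact 95% intervals, and the black lines mark the share of flanking windows 2000 bp away. ETS sites were more frequent in PU.1-only than in joint distal peaks (42.2% and 32.3%), and CEBP sites were in 0.928% of promoter and 4.28% of distal PU.1-only peaks.

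These contrasts were present away from promoters, too. A distal peak was one centred more than 1000 bp from any transcript start of a protein-coding gene. ETS sites were in 42.2% of the 1380 distal PU.1-only peaks (39.6 to 44.9%) and 32.3% of the 2503 distal joint peaks (30.5 to 34.2%). CEBP sites were in 17.6% of distal joint peaks (16.1 to 19.1%) and 9.21% of promoter joint peaks (6.91 to 11.96%), against 2.70% and 5.34% of flanking windows. Centred on the CEBPA peak, the shares were 29.9% of distal and 19.7% of promoter joint peaks. The longer form GAGGAAGT, which the literature associates with PU.1, was found in 8.83% of PU.1-only and 6.30% of joint peaks. The forms CAGGAAGT and CCGGAAGT, associated with ETS1, were found in 14.4% and 10.1%. All 3 forms contain the ETS site, and the second count rests on 2 sequences. In the PuER lists the order was the other way round, with GAGGAAGT in 16.9% of PU.1-only and 11.2% of joint peaks and the ETS1 forms in 6.83% and 5.51%. RUNX sites (TGTGGT or TGCGGT) were in 19.3% of distal joint peaks (17.8 to 20.9%), 17.2% of distal PU.1-only peaks (15.2 to 19.3%) and 13.6% of distal CEBPA-only peaks (13.1 to 14.1%), against 6.73%, 6.67% and 7.01% of flanking windows. AP-1 sites (TGANTCA) were in 5.55%, 4.86% and 4.64% of distal peaks of the same classes, against 2.44%, 2.68% and 2.31% of flanking windows. Among the RefSeq promoters, 3.20% held GAGGAAGT, 7.07% an ETS1 form, 22.4% a RUNX and 7.81% an AP-1 site. Those sequences are 300 bp long against the 80 bp searched in peaks, so the shares are not directly comparable.

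PU.1-only peaks lay nearer to transcription starts than the others did. Their centres were a median of 3990 bp (quartiles 131.25 and 19588.5 bp) from the nearest transcript start of a protein-coding gene. The median was 12120.5 bp (2382 and 38302 bp) for joint PU.1 peaks and 10954 bp (2267 and 37069.5 bp) for CEBPA-only peaks. Promoter peaks, centred within 1000 bp of a start, made up 38.4% of PU.1-only peaks (36.4 to 40.5%), 17.8% of joint peaks (16.5 to 19.2%) and 17.0% of CEBPA-only peaks (16.5 to 17.5%). Within 100 bp of a start were 22.2%, 8.50% and 6.13%, respectively. Read from the other side, the share of PU.1 peaks that were joint rose from 34.2% (30.8 to 37.7%) of the 757 peaks within 100 bp of a start to 70.4% (67.3 to 73.4%) of the 899 peaks at 50 kb or more. Inside genes and between genes it was 64.4% and 64.5%, against 38.6% at promoters. The share of CEBPA peaks that were joint varied little, between 10.4% and 14.7% over the same distances, and was highest within 100 bp of a start. In each class about 60% of promoter peaks were centred upstream of the start (60.2% of joint, 59.9% of PU.1-only and 60.0% of CEBPA-only peaks).

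**Figure D3:**
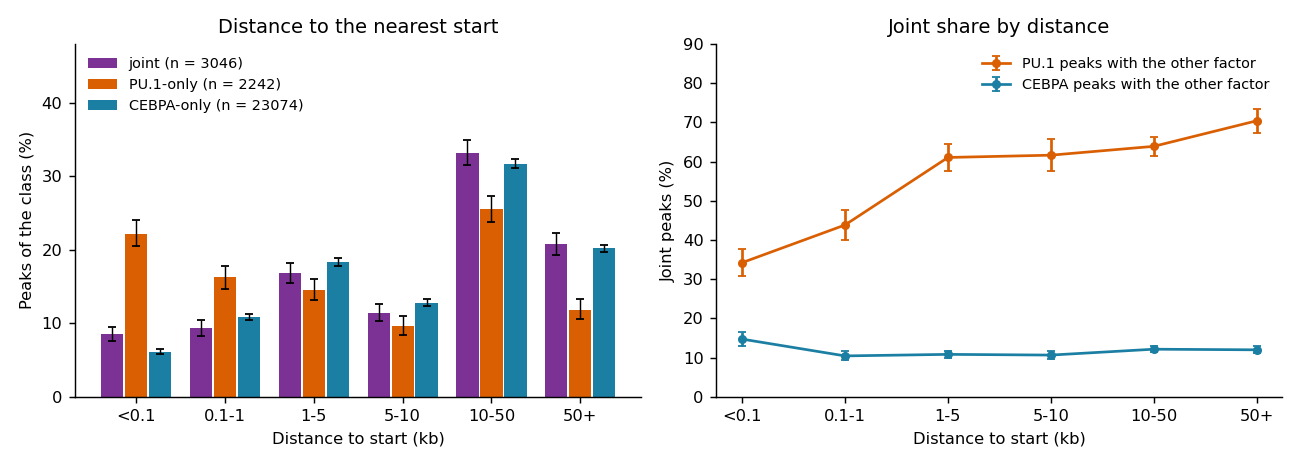
Left, the share of joint PU.1, PU.1-only and CEBPA-only peaks by the distance of their centre from the nearest transcript start of a protein-coding gene. Right, the share of all PU.1 peaks (orange) and of all CEBPA peaks (blue) that were joint in each distance class. Error bars are exact 95% intervals. Of the PU.1-only peaks 22.2% lay within 0.1 kb of a start, a higher share than in the other classes, and the joint share of PU.1 peaks climbed from 34.2% there to 70.4% at 50 kb or more.

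Promoters with PU.1 alone were also the richest in CpG. A peak was counted as CpG-rich when its 400 bp had more than 50% G and C and an observed to expected CpG ratio above 0.6. That held for 66.2% of PU.1-only promoter peaks (63.0 to 69.4%), 47.9% of joint promoter peaks (43.6 to 52.2%) and 41.8% of CEBPA-only promoter peaks (40.2 to 43.3%). Their median GC contents were 61.5%, 57.25% and 54.75%. The GC box GGGCGG, which SP and KLF factors recognise, was in 26.7% (23.8 to 29.8%), 20.3% (17.0 to 23.9%) and 14.5% (13.5 to 15.7%) of these promoter peaks and in 35.7% of the RefSeq promoters, whose windows are longer. Away from promoters the classes differed less in median GC, with 47.25% for PU.1-only, 46.5% for joint and 45.0% for CEBPA-only peaks. Few distal peaks were CpG-rich, but PU.1-only peaks were again ahead, with 3.62% (2.70 to 4.75%), 1.24% (0.84 to 1.75%) and 1.19% (1.04 to 1.35%). The GC box was in 3.41%, 1.80% and 1.77% of these distal peaks. At PU.1-only promoter peaks, 0.928% held a CEBP site, fewer than the 3.25% of their flanks. How far base composition moved with the differences in sites was not tested.

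The lists of the PuER line, made with the same antibodies, show which EV peaks were listed again. CEBPA peaks that were joint in EV were listed for CEBPA in PuER more often than those without PU.1, at 84.1% (82.8 to 85.4%) against 67.3% (66.7 to 67.9%). The gap was wider among distal peaks, with 86.0% (84.6 to 87.4%) against 66.5% (65.8 to 67.2%). At promoters the shares were 75.2% (71.4 to 78.8%) and 71.4% (69.9 to 72.8%). For PU.1, 58.5% of joint peaks (56.8 to 60.3%) and 52.9% of PU.1-only peaks (50.9 to 55.0%) were listed again. The direction depended on position, since at promoters joint peaks were ahead (42.2%, 38.0 to 46.5%, against 33.5%, 30.4 to 36.8%) while among distal peaks PU.1-only peaks were ahead (65.1%, 62.5 to 67.6%, against 62.1%, 60.2 to 64.0%), with overlapping intervals. Both factors were listed again at 51.9% of joint PU.1 peaks and neither at 9.78%. At a further 965 joint PU.1 peaks (31.7%, 30.03 to 33.4%) CEBPA was listed again and PU.1 was not, and at 202 (6.63%) PU.1 was and CEBPA was not. Of PU.1-only peaks, 7.58% had a CEBPA peak in PuER, and of CEBPA-only peaks 9.98% had a PU.1 peak.

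**Figure D4:**
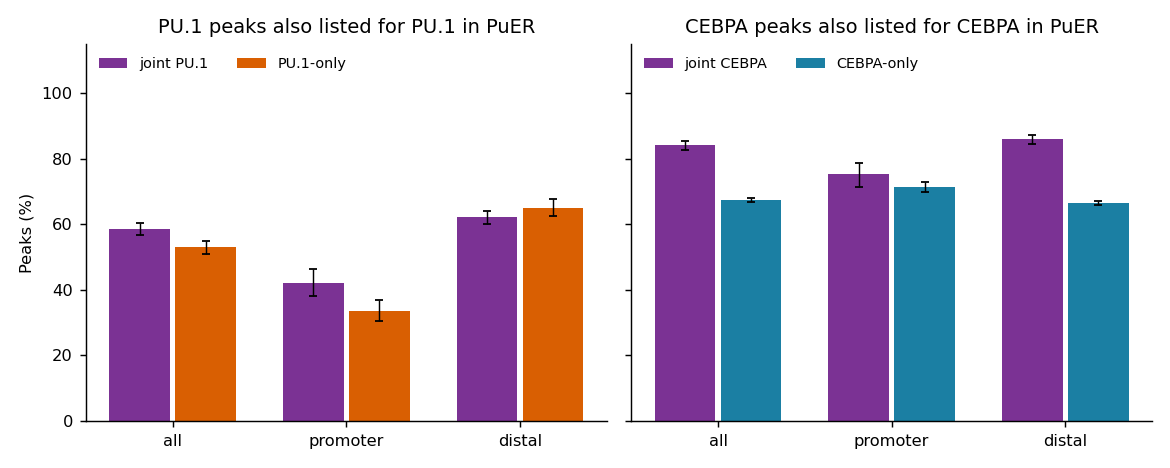
Share of EV peaks that overlapped a peak of the same factor in the PuER line, for PU.1 (left) and CEBPA (right), over all peaks and for promoter and distal peaks. Purple bars are joint peaks, orange and blue bars are peaks with a single factor, and error bars are exact 95% intervals. The widest gap was that of distal CEBPA peaks (86.0% against 66.5%).

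At the level of genes, most genes with PU.1 also had CEBPA. Peaks were assigned to the gene whose promoter held them, otherwise to the gene they lay in, and otherwise to the neighbour on each side within 50 kb. Of 21951 protein-coding genes, 3992 (18.2%) were assigned a PU.1 peak and 10267 (46.8%) a CEBPA peak. Both factors were assigned to 3484 genes (15.9%), PU.1 and no CEBPA to 508 (2.31%) and CEBPA and no PU.1 to 6783 (30.9%). Of the genes with PU.1, 87.3% (86.2 to 88.3%) also had CEBPA, and of the genes with CEBPA, 33.9% (33.0 to 34.9%) also had PU.1. A joint pair was assigned to 2454 genes (11.2%), which is 70.4% of the genes with both, so the other genes with both had the factors at separate places only. Genes with peaks were longer, with a median length of 38985 bp for genes with both, 24928 bp for CEBPA and no PU.1, 16975 bp for PU.1 and no CEBPA, and 10304 bp for genes with neither. The share of genes with PU.1 was 4.35% among those without CEBPA, 18.3% with 1 CEBPA peak, 33.9% with 2 or 3, 59.7% with 4 to 7 and 85.2% with 8 or more, while the median length rose from 10549 bp to 147284 bp. At promoters alone the picture was different, with 761 genes listed with both factors and 732 with PU.1 and no CEBPA, of which 403 (55.1%) had a CEBPA peak elsewhere.

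The 8 genes named here for their number of joint pairs were long. Vps13d, a lipid transfer protein, had 9 PU.1 and 19 CEBPA peaks with 7 joint pairs. Ssh2, a cofilin phosphatase, had 7 PU.1 and 12 CEBPA peaks, and all 7 PU.1 peaks were joint. At Fam49b, Sgk3, Atp10a and Fndc3b there were 6 joint pairs each, with 9, 7, 8 and 8 PU.1 peaks. Sntb1 and Lcp1 had 5 each, and were taken from 10 genes with 5 pairs because a peak lay nearest to their start. Those 10 included short genes, such as Glrx (10287 bp) and Fcgr2b (17931 bp). The 8 genes were between 99742 bp (Lcp1) and 295146 bp (Fndc3b) long, while the median of all genes was 17403 bp. Lcp1 encodes L-plastin, an actin-bundling protein of leukocytes, and each of its 5 PU.1 peaks was joint, among 11 CEBPA peaks. In PuER, 2 of those 5 PU.1 peaks and 3 of the 5 CEBPA partners were listed again. At Ssh2 the numbers were 5 and 7 of 7.

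Genes with PU.1 and no CEBPA had few peaks. The most was 2, and the 4 such genes whose peak lay closest to the start were Acbd5, Micu2, Pick1 and Yae1d1, each with a PU.1 peak centred 2 to 6 bp from a start and another between 15965 and 26572 bp away. Micu2 encodes a regulator of the mitochondrial calcium uniporter and Acbd5 a peroxisomal acyl-CoA binding protein. By contrast, genes with CEBPA and no PU.1 reached 15 peaks at Arhgef38, which encodes a guanine nucleotide exchange factor, and 14 each at Pip5k1b, Runx2 and Nrg1. Runx2 is the RUNX member best known from bone, and 12 of its 14 CEBPA peaks were listed again in PuER. Nrg1, an EGF-family ligand, is 1069479 bp long.

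Both factors were found at both of their own genes. Spi1 (chromosome 2, 91082390 to 91115756, plus strand) was assigned 1 PU.1 peak and 6 CEBPA peaks. The PU.1 peak, at chr2:91082891-91083290, was joint, and its centre was 683 bp downstream of an annotated start, outside exons, and was therefore counted at a promoter. That start belongs to a longer transcript, and the centre lay 13689 bp upstream of the start at 91096780, near which a CEBPA peak was centred. This is the place of the upstream regulatory element of Spi1, a known distal enhancer. The partner CEBPA centre was 41 bp away, and both peaks were listed again in PuER. Cebpa (chromosome 7, 35119293 to 35121928, plus strand), which is 2636 bp long, was assigned 2 PU.1 and 10 CEBPA peaks, and both PU.1 peaks were joint, centred 38164 bp upstream and 7749 bp downstream of the start. The downstream pair was listed for both factors in PuER and the upstream pair for neither. The central 80 bp of the CEBPA peaks of the Spi1 pair and of the downstream Cebpa pair each held a CEBP site and no ETS site of the form searched. They are shown because they are the points at which both factors met at the genes that encode them.
Spi1, chr2:91083010-91083089: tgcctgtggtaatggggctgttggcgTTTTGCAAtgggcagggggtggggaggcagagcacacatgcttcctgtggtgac
Cebpa, chr7:35127032-35127111: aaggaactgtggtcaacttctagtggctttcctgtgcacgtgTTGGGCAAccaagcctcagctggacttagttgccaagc
A further PU.1 peak without CEBPA, at chr2:91070325-91070724, lay 11865 bp upstream of the nearest Spi1 start and went to Slc39a13, whose promoter it was in.

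Lists of genes known from myeloid cells had more genes with both factors than the 15.9% of all genes. Among 40 haematopoietic transcription factors, 19 (47.5%) had both, 16 CEBPA and no PU.1, 1 PU.1 and no CEBPA and 4 neither. A joint pair was assigned to 15 of them (37.5%, against 11.2% of all genes). The pair counted at Cebpg is the upstream pair of Cebpa, so these genes are not fully separate observations. Runx1 had 4 PU.1 and 21 CEBPA peaks, and Ets1 4 and 13, with each PU.1 peak joint at both genes. At Gfi1, a repressor needed for granulocyte formation, all 3 PU.1 peaks were joint, while 3 of the 5 PU.1 peaks of Myb were. Lyl1, a basic helix-loop-helix factor, was the member with PU.1 and no CEBPA, through a peak centred 58 bp upstream of its start that was also listed in PuER. Irf8 and Cebpe, which act in monocyte and granulocyte formation, had 2 CEBPA peaks each and no PU.1 peak. Of 21 cytokine and growth factor receptors, 13 had both, 6 CEBPA and no PU.1, and 2 neither. Il17ra had 6 peaks of each factor with 4 joint pairs, Tnfrsf1b 3 PU.1 and 10 CEBPA peaks with 3 pairs, of which 2 were also counted at its neighbour Vps13d, and Ifngr2 and Il6ra 2 pairs each. Csf3r, the G-CSF receptor, had 1 joint pair, and Csf1r, the M-CSF receptor, was listed for neither factor.

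All 20 genes of granule and secreted host-defence proteins had a CEBPA peak, against 46.8% of all genes, and 10 of them had PU.1 as well (50.0%, against 18.2%). These genes are short, with a median of 5387.5 bp. S100a8, a subunit of calprotectin, had 3 PU.1 peaks, each joint, among 6 CEBPA peaks, and a pair lay at its promoter with the PU.1 centre 79 bp upstream of the start. The remaining 2 pairs lie between S100a8 and S100a9 and were assigned to both genes, so they are not separate observations. All 3 PU.1 peaks of S100a8 and both of the neutrophil collagenase gene Mmp8 were listed again in PuER. Elane (neutrophil elastase) had 1 joint pair, and Mpo (myeloperoxidase) had 1 CEBPA peak and no PU.1 peak. Of 35 phagocyte surface receptors and integrins that were found in the annotation, from 36 listed, 21 (60.0%) had both, 9 CEBPA and no PU.1 and 5 neither. Fcgr2b, the inhibitory Fc receptor, had 6 PU.1 and 11 CEBPA peaks with 5 pairs, and all 6 PU.1 peaks were listed again in PuER. Clec4d and Cx3cr1 had 3 pairs each and the endotoxin receptor gene Tlr4 had 2. Of 13 genes for the NADPH oxidase and its kinases, 8 had both, 4 CEBPA and no PU.1 and 1 neither. The cytosolic subunits Ncf1 and Ncf4 had 1 joint pair each and a further PU.1 peak without CEBPA, while Cybb, a membrane subunit, had 4 CEBPA peaks and no PU.1 peak. Over these 5 lists, Lyl1 was the single gene with PU.1 and no CEBPA. Of all genes 2.31% were of this kind, so lists of this length would hold few and no depletion should be read. Median gene lengths were 18894.5 bp for the transcription factors, 24313 bp for the cytokine receptors, 13155 bp for the surface receptors and 41235 bp for the oxidase list. Gene length was not separated from the shares of the lists.

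**Figure D5:**
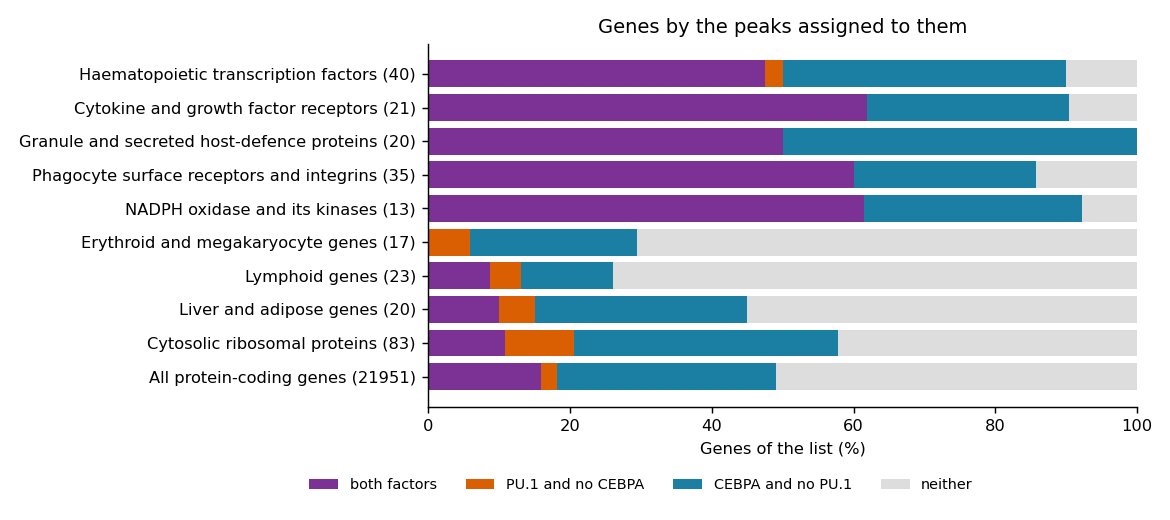
Share of the genes of each list, and of all 21951 protein-coding genes, that were assigned peaks of both factors, of PU.1 and no CEBPA, of CEBPA and no PU.1, or of neither in EV cells. The number of genes is in parentheses. The 5 myeloid lists had both factors at 47.5% to 61.9% of their genes, against 15.9% of all genes.

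Lists of other lineages had no higher share of genes with both factors than the 15.9% of all genes. The share was 8.70% in the lymphoid list and 10.0% in the liver and adipose list. These lists are short, so the gaps to 15.9% rest on few genes and no depletion should be read. Of all genes, 50.9% had neither factor. Of 17 erythroid and megakaryocyte genes found in the annotation, from 18 listed, 12 had neither factor, 4 CEBPA and no PU.1, and none both. The remaining gene was Tfrc, the transferrin receptor, with a PU.1-only peak centred 14 bp from its start. Of 23 lymphoid genes, 17 had neither. Vpreb1, the surrogate light chain gene, and Tcf7 had both, with 1 joint pair each, and Cd79b had PU.1 and no CEBPA. Of 20 liver and adipose genes, where CEBP factors also act, 11 (55.0%) had neither, close to the share of all genes. Pparg had 5 PU.1 and 18 CEBPA peaks with 3 pairs, Adipoq 2 peaks of each factor in 2 pairs, and Slc2a4 a PU.1 peak and no CEBPA peak.

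The 83 cytosolic ribosomal protein genes differed from the myeloid lists. A PU.1 peak was assigned to 20.5% of them and a CEBPA peak to 48.2%, each close to the share of all genes (18.2% and 46.8%). What differed most from all genes was the share with PU.1 and no CEBPA. PU.1 and no CEBPA was assigned to 8 ribosomal genes (9.64%, against 2.31% of all genes). Both factors were assigned to 9 (10.8%, against 15.9%), a gap that rests on few genes, so no depletion should be read. CEBPA and no PU.1 was assigned to 31 (37.3%, against 30.9% of all genes) and neither to 35 (42.2%, against 50.9%). Among the 8 with PU.1 and no CEBPA were Rpl12, Rpl26, Rpl28, Rpl35a, Rpl36a, Rplp1 and Rps3. Apart from Rpl12, whose peak was 4737 bp downstream, the PU.1 centres of these 7 genes were between 1 bp (Rpl35a) and 170 bp (Rpl36a) from a start. None of these 7 peaks was listed for PU.1 in PuER, where 33.5% of all promoter and 65.1% of all distal PU.1-only peaks were. Of the 9 ribosomal genes with both, Rps25, Rpl18, Rpl37 and Rps3a1 had a joint pair with the PU.1 centre 9, 11, 100 and 108 bp from a start, and Rps19 had the fifth. The genes are short, with a median of 3368 bp, and lists were compared with all genes by their counts only.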

How the data were processed

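The series holds 8 samples, and 4 peak lists were used, of PU.1 and CEBPA in the EV and PuER lines. The H3K27Ac and IgG libraries were not used here. According to the submitters' processing notes, reads were mapped to mm10 with Bowtie2 2.0.6 and peaks were called with MACS2 2.0.10. The authors deposited the chromosome, start and end of each peak and no score or count. The calling threshold and the reason for the 400-bp width are not given in the sources used here. The authors' text also mentions cells at time 0, while the labels give 2 h. Starts and genes came from GENCODE release M21 and sequences from GRCm38. The promoter database used by the authors was not used here. Overlap was at least 1 bp. Genes named were Spi1, Cebpa, the 8 with most joint pairs, the 4 with most PU.1 peaks and no CEBPA, the 4 with most CEBPA peaks and no PU.1, up to 4 per list with most pairs, and each list member with PU.1 and no CEBPA. Predicted genes and chromosome 18 were skipped, and 1 gene that the rule names is not reported here. Further genes that the text names (Csf1r, Csf3r, Irf8, Cebpe, Elane, Mpo, Cybb, Rps19, Slc39a13, Glrx and those at added sequences) were chosen after their values were seen. The members and lists were chosen with earlier results of these data known. The overlap step recovered 100% of simulated classes, and the site step 100% of planted GGAAGT sites. The other site forms were not planted, and the sequences around the planted sites held only A and T, so false matches were not examined. Python 3.11.15, numpy 2.4.6, scipy 1.17.1, pysam 0.24.0 and samtools 1.23.1 were used, with matplotlib 3.10.9 for plots. Alternatives were other distances for joint peaks, promoters and genes, other starts, windows and motifs, and assembled chromosomes only.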

Additional observations from a re-analysis of the deposited data

How the results depend on the processing

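A change of definition moved many shares past their 95% intervals and left most orders between classes as they were. With joint defined by centres within 100 bp and within 1000 bp, 45.2% and 62.9% of PU.1 peaks and 9.16% and 13.6% of CEBPA peaks were joint. Joint peaks were then at promoters in 16.0% and 19.6%, and joint CEBPA peaks listed again in PuER in 85.7% and 81.2%. With 100 bp, CEBP sites were in 19.4% of joint peaks, and PU.1-only peaks had a promoter share of 35.3%, a median distance to a start of 4918.5 bp and ETS sites in 39.6%. With each PU.1 peak paired to its nearest CEBPA peak within 1000 bp, the median distance was 50 bp and 50.3% lay within 50 bp. With promoters of 2500 bp, the shares were 25.5% (joint), 45.9% (PU.1-only) and 26.1% (CEBPA-only). With starts of all gene types they were 20.9%, 42.3% and 20.2%, and the median distances 6202.5, 2053 and 6409.5 bp. Joint and CEBPA-only peaks thus changed places in promoter share with 2500 bp and with the 100-bp definition (16.0% and 17.2%), and in median distance with all starts, and no order between them should be read. In the central 200 bp, ETS sites were in 49.9% of joint, 58.9% of PU.1-only and 18.1% of CEBPA-only peaks, and CEBP sites in 30.9%, 7.05% and 47.3%. In the whole peak the ETS shares were 59.2%, 66.5% and 29.01% and the CEBP shares 41.1%, 12.5% and 52.6%. With the shorter cores GGAAG and TTGCNNNA they were 53.2%, 61.4% and 26.7%, and 30.01%, 9.23% and 61.0%. Counts of genes stayed within 1.5 times under assignment at 20 or 100 kb or to the nearest start, and leaving out the 2 CEBPA peaks outside chromosomes 1 to 19, X and Y moved none of the 20 values recomputed past its interval. A stricter peak threshold could not be run, since the lists hold no score. No paired analysis was possible because there was 1 library per antibody and line and no result came from a test, so no replicate block could be fitted or library left out.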

Other observations

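The ratio of listed CEBPA to PU.1 peaks varied between chromosomes. CEBPA peaks were 4.01 times as many as PU.1 peaks on chromosome 1 and 7.59 times as many on chromosome X. The next highest ratio was 6.56, on chromosome 2, which carries Spi1. The copy number of the chromosomes in this line, which can affect peak calls, was not tested. PU.1 peaks were densest on chromosome 11, at 3.15 per Mb, and sparsest on X, at 0.415 per Mb, while CEBPA peaks were densest on chromosome 19, at 14.8 per Mb. The joint share of PU.1 peaks ran from 46.5% on X (34.5 to 58.7%, 71 peaks) to 62.8% on chromosome 10 (57.1 to 68.4%, 296 peaks). Of the CEBPA peaks, 2 were outside chromosomes 1 to 19 and X. The peak centre fell in repeat-masked sequence for 8.27% of joint PU.1, 8.65% of PU.1-only and 6.97% of CEBPA-only peaks.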
